A study of Vitis vinifera with 60 samples.

Results

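A set of 61 genes changed differently in Barbera than in 4 other red grapevine cultivars when berries turned soft. They were chosen by measured values. For each gene the change from berries beginning to touch to soft berries was taken on the log2(FPKM + 1) scale, and a gene was kept when the change in Barbera lay at least 2 log2 units outside the range of the changes in Sangiovese, Negroamaro, Refosco and Primitivo. FPKM is a fragment count scaled to transcript length and to library size. Of the 29287 genes in the table, 18207 averaged 1 FPKM or more across the 20 columns. A further 50 of these were left out because a touching or soft value was listed as exactly 0 while the median of the other cultivars at that stage was at least 10 FPKM, which left 18157 candidates. Among the 61, the Barbera change lay above the other cultivars in 50 genes, 0.275% of the candidates, and below them in 11, 0.0606%. These counts and the softening values that follow describe the choice and carry no test.

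Grape berries pass through an early growth phase, a lag, and a ripening phase that opens at veraison. At veraison the flesh loses firmness as cell walls are remodelled, sugars accumulate, organic acids decline and red cultivars begin to make anthocyanins. Barbera is a Piedmontese wine grape known for the high acidity that its berries keep at ripeness. The RNA came from pericarp, the berry without its seeds, of the 5 cultivars grown in a single vineyard in 2011. Berries were sampled when pea-sized, when beginning to touch, when soft and when ripe for harvest. Each pairing of a cultivar with a stage had 3 biological replicates per the labels, which makes 60 libraries, but the deposited table holds a single mean per pairing, so neither the spread between replicates nor the depth behind a value is known. In bulk pericarp, a smaller number of cells of a type and less RNA per cell cannot be told apart. The files do not pair locus tags with gene names, and 0 of the tags were found in the RefSeq gene table, so genes are given by tag, without a role, and the tissue could not be checked against marker genes. The 2 digits after VIT_ are called the chromosome field. In what follows, a gene "rose" or "fell" at a step when its mean changed by at least 1 log2 unit, a size and not a test.

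The same rule found fewer genes when another cultivar took the place of Barbera. It gave 43 genes in Negroamaro, 35 in Refosco, 31 in Sangiovese and 24 in Primitivo, or 0.237%, 0.193%, 0.171% and 0.132% of the candidates. The excess in Barbera lay among changes above the other cultivars, where the other 4 had 12 to 22 genes against its 50. Below the others Barbera had 11 genes, and the other 4 had 12 to 21. These counts share columns and were not tested against each other. The change in Primitivo was the closest to that of Barbera in 22 of the 50 genes. Without Primitivo in the comparison the rule gave 172 genes above and 24 below. Without Sangiovese, Negroamaro or Refosco it gave 61, 75 and 69 above. Leaving a cultivar out can only narrow the range or keep it, so these counts could not fall, and all 61 genes remained each time.

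**Figure D1:**
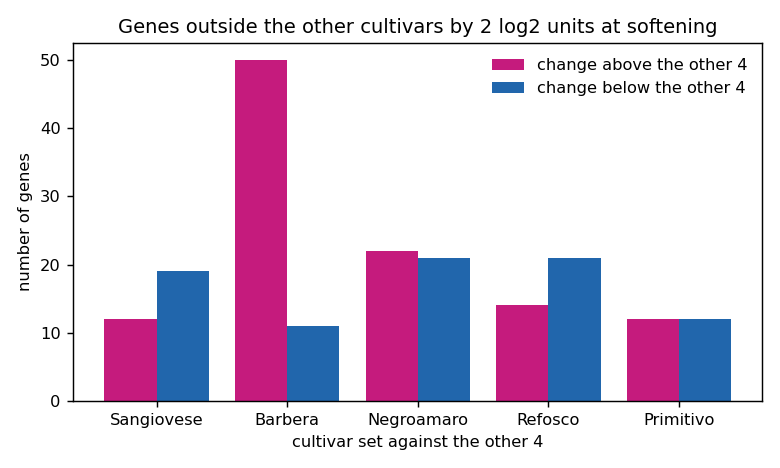
Number of genes (vertical axis) whose change from touching to soft berries lay at least 2 log2 units above or below the other 4 cultivars, with each cultivar in turn set against the rest (horizontal axis). Barbera has 50 genes above, against 12 to 22 in the other cultivars.

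The 50 genes above the others were mostly genes that rose in Barbera at softening while they fell or changed little elsewhere. In Barbera 39 of the 50 rose and 4 fell, with a median change of 2.10 log2 units. In Sangiovese 3 rose and 22 fell, in Negroamaro 6 and 23, in Refosco 4 and 27, and in Primitivo 7 and 23, with medians from -1.27 to -0.72. Over all candidates the median change was -0.22 in Barbera and between -0.32 and -0.24 in the others. The change was upward in Barbera and downward in each of the other 4 cultivars in 22 of the 50 genes, and in 5 of these it was at least 2-fold in all 5 cultivars. The margin beyond the nearest other cultivar had a median of 2.29 log2 units and ran from 2.00 to 9.38. VIT_01s0146g00440 was the last gene inside the rule with a margin of 2.0022, and VIT_01s0011g04700 the first outside it with 1.994.

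**Figure D2:**
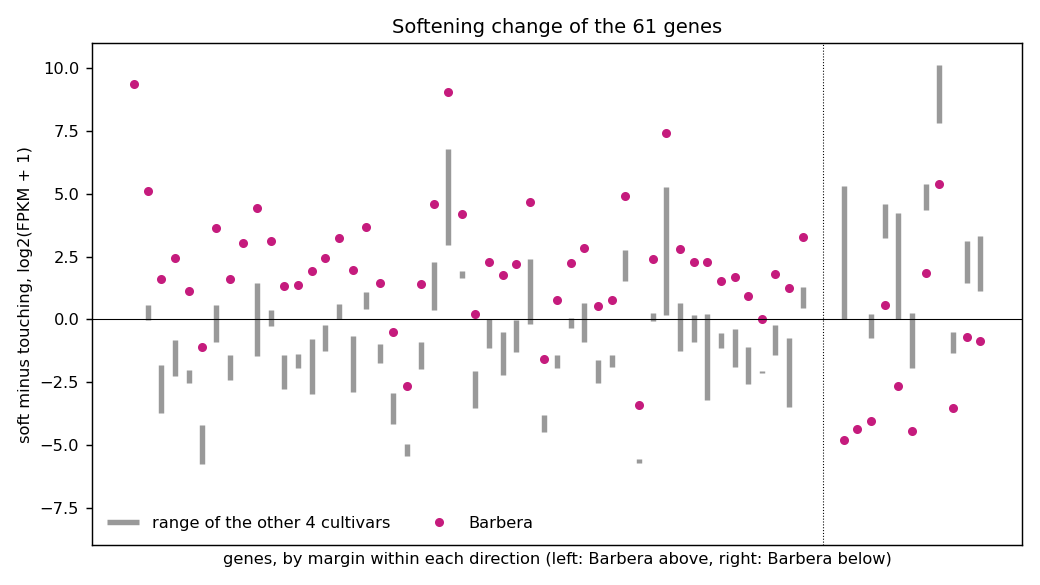
Change from touching to soft berries in log2(FPKM + 1) (vertical axis) for each of the 61 genes (horizontal axis), with Barbera as a point and the range of the other 4 cultivars as a bar. Left of the dotted line are the 50 genes where Barbera lies above the others. Most of these points lie above 0, and the whole bar lies below 0 in 28 of the 50 genes. Right of the line are the 11 genes where Barbera lies below.

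The largest margins in both directions belonged to genes listed at 0 in most columns. VIT_14s0006g01860, on chromosome field 14, stood at 664 FPKM in soft Barbera berries and at 421 FPKM in pea-sized Sangiovese berries, and was listed at 0 in the other 18 columns. VIT_08s0040g03000 was at 26.7 FPKM in touching and 59.3 FPKM in harvested Barbera berries, and listed at 0 in pea-sized and soft ones. In the other cultivars it was at 39.1 FPKM in soft and 20.4 FPKM in pea-sized Sangiovese berries, at 28.4 and 28.2 FPKM in pea-sized Refosco and Primitivo berries and at 46.1 FPKM in harvested Negroamaro berries, and at 0 in the rest. VIT_16s0013g00920 was at 19.5 and 21.0 FPKM in touching and harvested Barbera berries, and at 0 in its pea-sized and soft ones. Values between 15.01 and 23.0 FPKM stood in 4 columns of other cultivars for this gene, and 14 of the 20 columns were at 0. An exact 0 can also be a failed estimate. Of the 50 genes above, 9 had an exact 0 in a touching or soft column, and of the 11 below, 4 had one. Without genes that have such a 0, 41 lay above and 7 below.

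Among genes with a value above 0 in every column, VIT_15s0048g00620 had the largest margin, 4.53 log2 units. On chromosome field 15, it went in Barbera from 28.0 FPKM in pea-sized berries to 1.13 FPKM in touching, 72.1 FPKM in soft and 32.7 FPKM in ripe ones. From touching to soft berries it went from 0.392 to 1.06 FPKM in Sangiovese, from 3.04 to 3.02 FPKM in Negroamaro, from 0.307 to 0.392 FPKM in Refosco and from 0.470 to 0.797 FPKM in Primitivo. The touching level of Barbera thus lay inside the range of the other cultivars, while its soft level was above all of theirs. It was above them at both outer stages too, where the others held 3.77 to 10.4 FPKM as pea-sized and 2.00 to 4.18 FPKM at harvest. In limma's test on pea-sized and harvest columns, which entered the choice of genes only through the filter on the mean, Barbera differed from the mean of the others by 2.42 log2 units (SE 0.45, limma unadjusted p = 0.00135, adjusted p = 0.50), higher than all 4 others at both stages.

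VIT_02s0087g00750 had the largest margin, 3.42 log2 units, of the 17 genes that rose in Barbera and whose change was downward in the other 4. Its Barbera level rose from 6.32 to 21.2 FPKM. It fell from 12.1 to 0.176 FPKM in Sangiovese, from 13.4 to 2.54 FPKM in Negroamaro, from 13.9 to 0.117 FPKM in Refosco and from 3.08 to 0.157 FPKM in Primitivo. The soft value of Barbera was the highest of the 5 and its touching value the second lowest. At harvest Barbera held 9.02 FPKM, and Refosco was higher at 29.0 FPKM.

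Some of the 50 genes rose in all 5 cultivars and rose further in Barbera. VIT_03s0063g01290, on chromosome field 3, was under 0.5 FPKM in touching berries of every cultivar. In soft berries it reached 563 FPKM in Barbera, 130 FPKM in Negroamaro, 19.7 FPKM in Primitivo, 17.8 FPKM in Sangiovese and 6.96 FPKM in Refosco. Barbera and Negroamaro were the high cultivars at this stage. At harvest the order was another, with Primitivo at 564 FPKM, Barbera at 344 FPKM, Negroamaro at 12.4 FPKM, Sangiovese at 11.3 FPKM and Refosco at 6.05 FPKM. Exchanging the harvest columns labelled Negroamaro and Primitivo would move the 564 FPKM to Negroamaro.

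In a group of 11 genes the Barbera change lay above the others because the gene fell less or stayed within 1 log2 unit while the others fell. VIT_12s0059g01830 showed this with the levels of touching berries. It stood at 1.69 FPKM in touching Barbera berries, against 79.2 FPKM in Sangiovese, 62.5 FPKM in Negroamaro, 116 FPKM in Refosco and 32.0 FPKM in Primitivo. In soft berries it was at 0.265 FPKM in Barbera and between 0.770 and 2.06 FPKM in the others. Its pea-sized level was 405 FPKM in Barbera and 600 to 731 FPKM in the others. The step with the largest fall was thus from pea-sized to touching in Barbera. VIT_19s0014g04900 behaved alike, with 0.453 FPKM in touching Barbera berries against 6.63 to 20.3 FPKM in the others, and under 0.2 FPKM in all soft berries. Of these 11 genes, 9 were lower in touching Barbera berries than in any other cultivar.

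For most of the 50 genes the soft column contributed more to the gap than the touching column. The distance of Barbera from the mean of the others was the larger one in soft berries for 41 genes and in touching berries for 9. Barbera had the highest soft value of the 5 cultivars in 43 genes and the lowest touching value in 27, with both in 20. Over all genes tested it was highest in soft berries in 22% and lowest in touching berries in 28.2%, but the rule favours both positions. The median distance was -0.68 log2 units in touching and 2.26 in soft berries, against -0.05 and -0.01 over all 18207 genes.

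The levels of the 50 genes over the 4 stages are a description, since the rule used the touching and soft columns. Their median level in Barbera was 13.5 FPKM in pea-sized, 2.54 FPKM in touching, 21.3 FPKM in soft and 21.5 FPKM in ripe berries. In the other cultivars the medians ran from 7.04 to 9.51 FPKM in pea-sized, 3.76 to 9.34 FPKM in touching, 1.58 to 3.42 FPKM in soft and 3.84 to 7.86 FPKM in ripe berries. The lowest median lay at touching in Barbera and at soft in the others, which the rule favours. Touching was the lowest of the 4 stages in 30 of the 50 genes in Barbera and in 6 to 10 in the other cultivars, while soft was the lowest in 2 and in 16 to 25. Over all genes tested, touching was the lowest in 13.7% in Barbera and 8.62% to 13.1% in the others, and soft in 18.7% and 21.4% to 22.3%. Nothing is read from the difference, as the choice of genes shapes it.

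**Figure D3:**
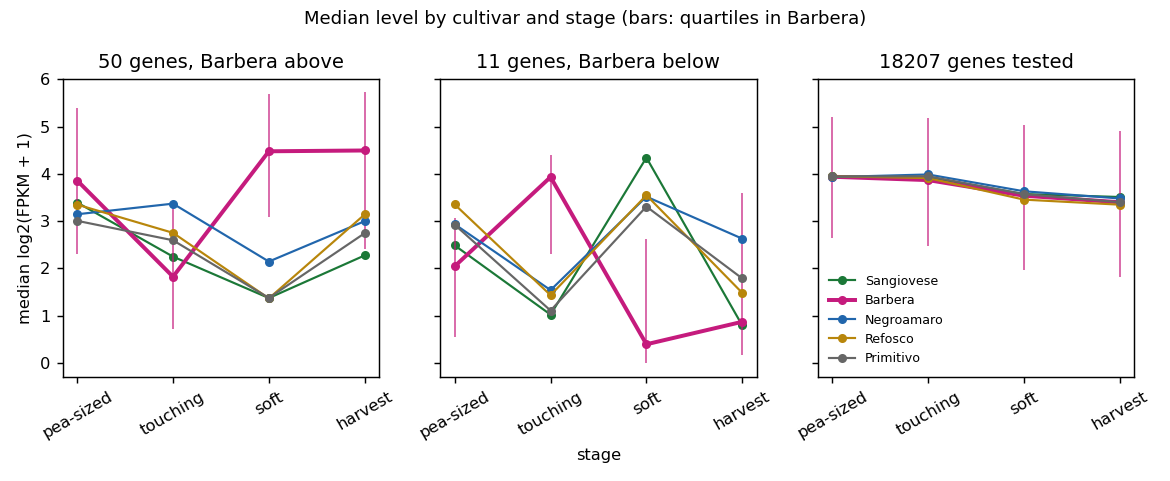
Median log2(FPKM + 1) (vertical axis) at the 4 stages (horizontal axis) in each cultivar, for the 50 genes above, the 11 genes below and all 18207 genes tested, with vertical lines for the quartiles in Barbera. For the 50 genes the Barbera line is lowest in touching berries and the other lines in soft berries, while all 5 lines of the full gene set nearly coincide.

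The stage of the berries was also compared through the remaining genes. Each cultivar was placed on its own scale, built from all genes tested other than the 61. On it 0 stands for the average pea-sized berry of the remaining cultivars and 1 for their average harvested berry. Touching Barbera berries lay at 0.235 and those of the others, each on its own scale, between 0.101 and 0.180. Soft Barbera berries lay at 0.738 and those of the others between 0.645 and 0.776. As the scales differ, these positions can be compared only roughly. The part of the Barbera position in the result was not tested.

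The pea-sized and harvest columns took no part in the softening contrast and entered the choice only through the filter on the mean over 20 columns. There Barbera lay on average above the other cultivars for more of the 50 genes than below. Over both stages it was higher than the mean of the others in 37 of 50 genes and lower in 13, with a median difference of 0.57 log2 units against -0.01 over all genes. By stage it was higher than that mean in 28 of the 50 genes (56%) in pea-sized berries, against 47.2% of all genes. At harvest it was higher in 34 (68%), against 48.8%. At harvest it was the highest of the 5 cultivars in 19 of the 50 genes, where 15.6% of all genes were, and by at least 1 log2 unit in 8, where 0.544% were. It was the highest among pea-sized berries in 20, against 23.9% of all genes, and by at least 1 log2 unit in 8, against 1.58%. With the filter applied to the touching and soft columns alone, an alternative chosen after seeing the data, 47 of the 50 genes passed, and VIT_00s0256g00130, VIT_00s0270g00010 and VIT_11s0118g00090 did not. Of the 47, Barbera was higher in 34 and lower in 13, with a median of 0.50 log2 units. It was the highest at harvest in 16 and by at least 1 log2 unit in 6, and among pea-sized berries in 20 and 8. The 50 genes vary more than most genes between columns, and the shares over all genes are not adjusted for that.

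No single gene of the 61 passed the test on those columns. The limma fit called 3 of the 18207 genes at an adjusted p under 0.05, 0.0165% of them, and 0 of these were among the 61. The lowest adjusted p of the 61 was 0.38 in limma, for VIT_01s0146g00440, with a difference of 1.15 log2 units (SE 0.18). At an unadjusted p under 0.05, 10 of the 50 genes were higher in Barbera and 2 lower, where 2.91% and 3.16% of all genes were. Among the 47 that passed the filter on touching and soft columns, these counts were 9 and 2. Of the 11 genes below, 0 reached an unadjusted p of 0.05. The fit has 2 stages as its repeats and 4 residual degrees of freedom, so a missed threshold does not show that levels were alike.

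**Figure D4:**
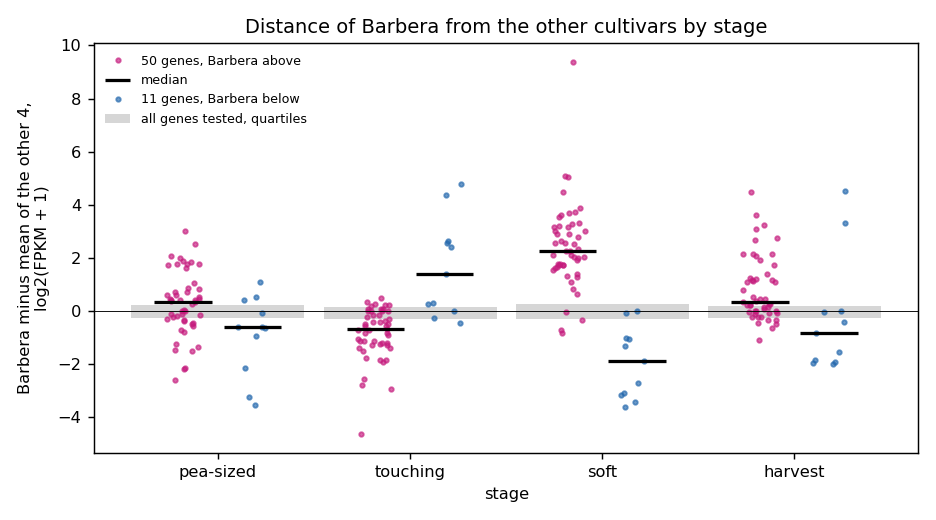
Distance of Barbera from the mean of the other 4 cultivars in log2(FPKM + 1) (vertical axis) at each stage (horizontal axis), with a point per gene, a black line at the median and a grey band for the quartiles of all genes tested. The medians of the 50 genes are -0.68 in touching and 2.26 in soft berries, which the rule compared, and 0.36 in pea-sized and 0.35 in harvested berries, which entered it only through the filter on the mean.

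Of the 50 genes, 10 formed 5 pairs that lie near each other on a scaffold by tag number, with at most 4 tested genes between. How often other genes tested lie so near was not counted, so nothing is read from the number of pairs. VIT_10s0003g05430 and VIT_10s0003g05450, on chromosome field 10, had no tested gene between them and nearly the same values. The first went from 3.82 to 25.2 FPKM at softening in Barbera, from 4.603 to 3.26 FPKM in Sangiovese, from 27.9 to 23.8 FPKM in Negroamaro, from 6.08 to 1.94 FPKM in Refosco and from 12.2 to 4.63 FPKM in Primitivo. The second went from 5.18 to 27.7 FPKM in Barbera, and its change was downward in the other 4. In soft berries both were about as high in Negroamaro as in Barbera, and at harvest the first stood at 49.5 to 77.5 FPKM and the second at 52.0 to 67.5 FPKM in all 5 cultivars. All 5 cultivars were thus at like levels at harvest, and Sangiovese, Refosco and Primitivo were the low ones in soft berries.

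VIT_09s0002g02570 and VIT_09s0002g02580 were adjacent on chromosome field 9 and also rose late elsewhere. VIT_09s0002g02570 went from 1.098 to 25.5 FPKM in Barbera at softening and stood at 1.04 to 4.82 FPKM in soft berries of the others. At harvest it was at 58.4 FPKM in Barbera, 28.2 FPKM in Sangiovese, 50.7 FPKM in Negroamaro, 274 FPKM in Refosco and 30.5 FPKM in Primitivo. VIT_09s0002g02580 had 20.8 FPKM in soft Barbera berries and at most 3.43 FPKM in the others, and was listed at 0 in touching Barbera berries. Harvest levels of both exceeded soft levels in all 5 cultivars, and Refosco was the highest.

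VIT_13s0064g01100 and VIT_13s0064g01110, neighbours on chromosome field 13, had similar levels in Barbera and unlike levels in Sangiovese. The change at softening was downward for both in each of the other 4 cultivars. In Barbera they held 49.8 and 47.1 FPKM in pea-sized, 6.17 and 5.05 FPKM in touching, 22.3 and 22.8 FPKM in soft and 42.6 and 50.99 FPKM in ripe berries. In Sangiovese the first was between 0.233 and 2.31 FPKM at all stages, while the second was between 3.72 and 31.0 FPKM. VIT_14s0066g01150 and VIT_14s0066g01190, with 3 tested genes between them on chromosome field 14, differed in course. The first rose from 9.57 to 21.9 FPKM in Barbera and fell to between 1.64 and 3.05 FPKM in the others. The second rose in all 5 cultivars, from 3.48 to 82.5 FPKM in Barbera and to between 10.6 and 24.1 FPKM in the others. VIT_14s0066g01190 was highest in Barbera at harvest too, with 128 FPKM against 34.1 to 83.0 FPKM. VIT_14s0066g01150 stood at 31.1 FPKM in Barbera at harvest. Refosco held 313 FPKM of it then and Negroamaro 58.2 FPKM, while Sangiovese held 3.96 FPKM and Primitivo 5.04 FPKM.

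VIT_01s0010g02940 and VIT_01s0010g02970 formed the remaining pair, on chromosome field 1, with 1 tested gene between them. They stayed within 1 log2 unit in Barbera, from 5.20 to 6.23 FPKM and from 2.52 to 4.15 FPKM, while both fell in each of the other 4. VIT_01s0010g02940 was at 46.0 FPKM in pea-sized Barbera berries against 10.8 to 13.2 FPKM in the others, and VIT_01s0010g02970 at 14.1 FPKM against 2.64 to 4.33 FPKM. Neighbouring genes can be near-identical copies between which the authors' estimate divides reads, and the libraries carried no strand, so each pair may hold less than 2 independent measurements. By chromosome field the 61 genes were spread over 18 numbered fields and the unplaced field, with at most 6 on any of them. Among fields with a member, the share of their tested genes ran from 0.0877% on field 8 to 0.826% on field 3.

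**Figure D5:**
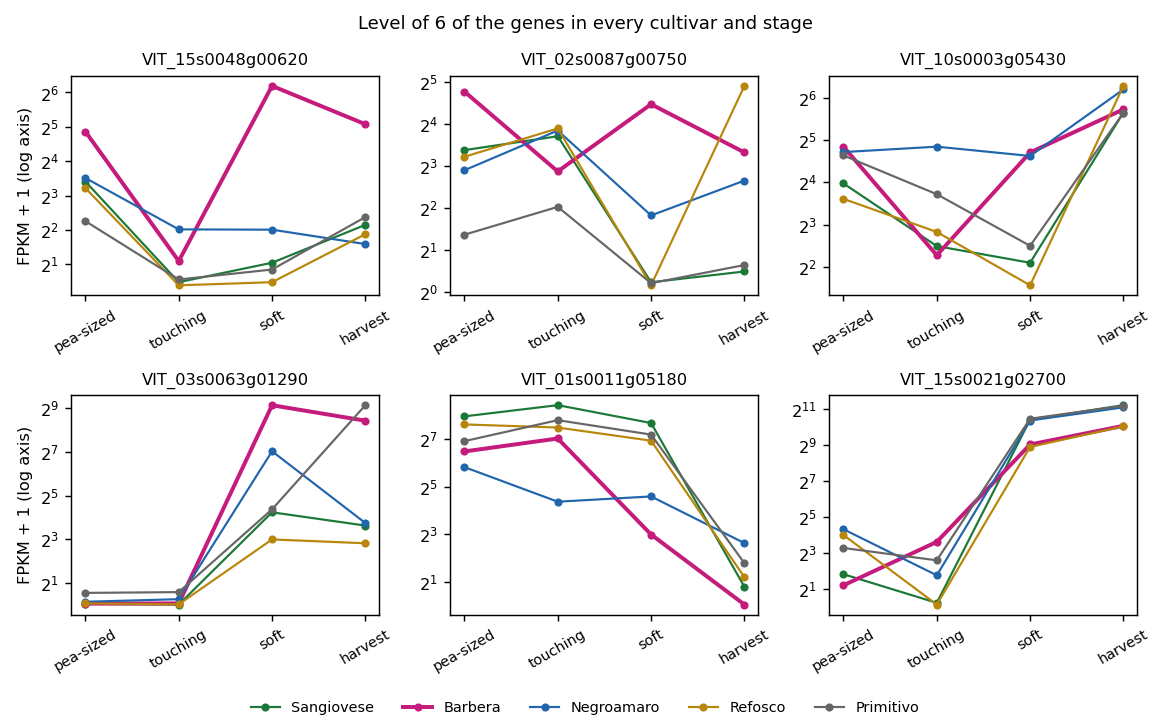
Level as FPKM + 1 on a log axis (vertical) of 6 of the genes at the 4 stages (horizontal axis), with a line per cultivar and Barbera as the thick line. VIT_15s0048g00620 stands apart in Barbera at pea-sized, soft and harvested berries, while VIT_10s0003g05430 converges at harvest and VIT_15s0021g02700 rises in all 5 cultivars from a higher touching level in Barbera.

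The 11 genes below the others were of several kinds, and the touching column counted as much as the soft one. In Barbera 6 of them fell and 2 rose, with a median change of -2.65 log2 units. The distance from the mean of the others was the larger one in soft berries for 6 genes and in touching berries for 5. Barbera had the lowest soft value in 6 and the highest touching value in 7, positions it held in 21.6% and 18.1% of all genes tested and which the rule favours here. At harvest Barbera was the lowest of the 5 in 4 of the 11, where 14.5% of all genes were. The margin ran from 2.01 to 4.79 log2 units. VIT_17s0000g06630 was the last gene inside the rule at 2.008, and VIT_08s0040g00800 the first outside it at 1.987.

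VIT_01s0011g05180 was the clearest fall in Barbera among those with a value in every column. It fell from 129 to 6.93 FPKM in Barbera. It went from 341 to 202.5 FPKM in Sangiovese, from 19.6 to 23.0 FPKM in Negroamaro, from 177.5 to 121 FPKM in Refosco and from 220 to 144 FPKM in Primitivo. By harvest it was at 0.0335 FPKM in Barbera and between 0.735 and 5.18 FPKM in the others, so it was low in all 5 cultivars then and lowest in Barbera. VIT_09s0002g07550 went from 20.8 FPKM in touching to a listed 0 in soft Barbera berries, where the others held 5.33 to 9.01 FPKM.

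Other genes of the 11 rose at softening elsewhere and did so less in Barbera. VIT_12s0035g02080 went from 16.3 to 24.98 FPKM in Barbera. It rose from 8.88 to 144 FPKM in Sangiovese, from 5.53 to 88.0 FPKM in Negroamaro, from 1.70 to 64.1 FPKM in Refosco and from 9.41 to 97.2 FPKM in Primitivo. Barbera was the highest of the 5 in touching berries and the lowest in soft ones. Among pea-sized berries it was also the lowest, and at harvest Refosco was lower, at 4.75 FPKM against 5.57 FPKM. VIT_15s0046g01360 stayed low in soft Barbera berries at 3.83 FPKM against 23.2 to 53.7 FPKM, and at harvest at 4.11 FPKM against 14.6 to 30.02 FPKM. The limma difference over pea-sized and harvest columns was -1.43 log2 units (SE 0.61, limma adjusted p = 0.82) for VIT_12s0035g02080 and -0.71 (SE 0.60, adjusted p = 0.93) for VIT_15s0046g01360. Barbera lay below the mean of the others at both stages for the former and at harvest alone for the latter.

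VIT_15s0021g02700 had the highest value of the 61 in any soft column, 1384 FPKM in Primitivo, and entered the set through both columns. Primitivo had the nearest change, which gave a margin of 2.45 log2 units. The Barbera level minus that of Primitivo was 1.02 log2 units in touching and -1.43 in soft berries. The gene rose in all 5 cultivars, in Barbera from 11.3 to 514 FPKM. Touching berries of the others held 0.107 FPKM in Refosco, 0.182 FPKM in Sangiovese, 2.41 FPKM in Negroamaro and 5.05 FPKM in Primitivo, all below Barbera. Soft berries held 468 FPKM in Refosco and 1292 to 1384 FPKM in the remaining 3, so the soft level of Barbera lay inside their range. At harvest Barbera with 1052 FPKM and Refosco with 1033 FPKM stood at about the same level, and the other 3 between 2140 and 2329 FPKM.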

How the data were processed

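The deposited table gives FPKM, which the table's name calls means, with a column per cultivar and stage. TopHat2 2.0.6 and Cufflinks 2.0.2 are listed by the submitters' processing notes, with no role stated. For the genome build and annotation, nothing is stated (not given in the sources used here). FPKM holds no read count, so depth, counting intervals and replicate spread are unknown. Column totals ran from 787405 to 1096120 FPKM. A pseudocount of 1 was added before log2, which understates changes of low genes. The rule, the genes and all lists were chosen with earlier results of these data known. As the tags matched 0 names, planned lists by function, seed markers among them, were not used. The genes named are the 2 largest margins in each direction, as planned, and others chosen after their values were seen. Those are the leading gene of each pattern of change, neighbouring pairs, the genes with the highest touching or soft values and those at the threshold. Pea-sized and harvest columns were fitted with limma 3.58.1 in R 4.3.3 (stage and cultivar terms, trend, Barbera against the mean of the other 4, Benjamini-Hochberg over 18207 genes, two-sided). On simulated data for this comparison with 18207 genes it recovered 26% of genes moved by 1 log2 unit and 52% at 2 upward. It recovered 64% at 2 downward and 98% at 4, and 7 of its 127 calls were of genes not moved (1 simulated run). The simulation moved 50 genes at each size together, and many calls ease the adjusted threshold. The fit of the measured columns called 3 genes. The recovery is thus not the power for the genes described here, which was not tested. Alternatives were other pseudocounts, filters, margins, scalings and treatments of zeros, each other cultivar left out, robust hyperparameters, and an exchange or removal of the Negroamaro and Primitivo harvest columns.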

Additional observations from a re-analysis of the deposited data

Results flagged for a closer look

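For the 23 genes named, the 5 cultivars' pea-sized and harvest values were searched for a column far from the rest, and 6 of 46 sets had one by Dixon's criterion. Chance alone flags about 1 in 20 sets that are independent, normally spread and not chosen by value. These genes were named partly for their values and some are neighbours, so the 6 cannot be set against that rate. VIT_15s0048g00620 stood apart at 32.7 FPKM in harvested Barbera berries, VIT_01s0010g02940 at 46.0 FPKM and VIT_01s0010g02970 at 14.1 FPKM in pea-sized Barbera berries. The other 3 columns that stood apart were not of Barbera: VIT_14s0006g01860 at 421 FPKM in pea-sized Sangiovese berries, VIT_09s0002g02580 at 281 FPKM in harvested Refosco berries and VIT_03s0063g01290 at 0.457 FPKM in pea-sized Primitivo berries. The softening change was upward in Barbera and downward in each of the other 4 cultivars in 22 genes, and downward in Barbera and upward in each of the others in 2. This difference between cultivars was not tested, since each cultivar and stage has a single value.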

How the results depend on the processing

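The count of 61 genes, 50 above and 11 below, depended on the margin, on the pseudocount and on which cultivars were compared. A pseudocount of 0.1 gave 136 (109 above, 27 below) and 59 of the 61 remained. A pseudocount of 5 gave 17 (13 and 4) and 16 remained. A margin of 1 log2 unit gave 458 (349 and 109) and a margin of 3 gave 12 (9 and 3). Leaving out each other cultivar in turn gave 78 to 196 genes, 61 to 172 above and 15 to 24 below, highest without Primitivo. Such a step could only keep or add genes, and all 61 remained. Scalings gave 53 to 61 genes, with 38 to 45 above and 14 to 16 below, and 47 to 54 of the 61 remained. The median change of all genes in Barbera was -0.22 without scaling, -0.48 with totals made equal, 0.01 with quantile normalization and -0.02 with upper-quartile scaling. Leaving out any gene with an exact 0 in a touching or soft column, chosen after seeing the data, gave 7 below. The filter on the mean of the touching and soft columns alone, also chosen after seeing the data, gave 59 (48 and 11), and 58 of the 61 remained. The causes were not tested. In the limma fit of pea-sized and harvest columns, 3 genes were called, against 6 with no filter, 0 at a mean of at least 5 FPKM, 0 after quantile normalization, 6 when the Negroamaro and Primitivo harvest columns were exchanged and 0 without them, and 0 to 1 with a cultivar left out. None of these fits called any of the 61. The 10 genes higher in Barbera at an unadjusted p under 0.05 became 6 with no filter, 6 without those harvest columns, and 7 to 14 with a cultivar left out. No paired analysis was possible because the columns are means that carry no replicate number. For the same reason no replicate could be left out.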
